A study of Mus musculus with 8 samples.

Results

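Double-positive cells of the E11.5 mouse forelimb are described here, that is, cells in which both *Hoxa13* and *Hoxd13* were counted with at least 1 UMI (unique molecular identifier, the mark of 1 captured mRNA molecule). They were chosen from both whole limb libraries among cells with at least 3000 UMIs, of which at most 10% came from mitochondrial genes. They numbered 927 of 11146 cells, with 460 of 5464 cells in whole limb 1 and 467 of 5682 cells in whole limb 2. The whole series held 53085 such cells in 8 libraries. Because the UMIs of *Hoxa13* and *Hoxd13* chose the members, the levels of these genes are given as a description and were not tested.

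*Hoxa13* and *Hoxd13* are the genes at the 5′ ends of the HoxA and HoxD clusters and encode homeodomain transcription factors. They come on late in the distal limb bud, in the mesenchyme that forms the autopod (the hand plate), which does not form in mice that lack both. Proximal mesenchyme, which forms the upper arm, is known for *Meis* genes, and the middle segment for *Hoxa11*. The distal tip grows under FGF signals from the apical ectodermal ridge, and *Shh* is made at its posterior margin.

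The embryos were C57BL/6J and carried *Hic1*CreERT2, a Cre made from the *Hic1* locus that works after tamoxifen, and a *Rosa26* tdTomato reporter that Cre switches on. The titles of the sorted libraries give both alleles as homozygous, and so do the methods for the line. The titles of the whole limb libraries name no zygosity. All dams had been gavaged with 7.5 mg of tamoxifen in 300 µL of oil at embryonic day 10, so no group without tamoxifen or without the alleles was included. Whole limb 1 and whole limb 2 (E11.5, 10x v2 chemistry per the methods) are labelled as holding tdTomato+ and tdTomato- forelimb mesenchymal progenitors, and per the methods they were lineage-negative cells of whole limbs. The other 6 libraries held sorted tdTomato+ forelimb cells from E11.5 to E16.5, with separate proximal and distal segments on the last day. The number of limbs pooled for the whole limb libraries is not given in the sources used here, so they were treated as 2 samples whose spread may be technical. They held 51674380 and 51505671 UMIs, shared 45 cell barcodes and had no shared barcode with identical counts.

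The double-positive share was 8.42% (exact 95% interval 7.70 to 9.19) in whole limb 1 and 8.22% (7.52 to 8.96) in whole limb 2, so the intervals overlapped. Intervals on shares cover counting error only. Among the sorted libraries it was 24.7% in the distal and 0.180% in the proximal segment of E16.5, which lacks the autopod, 12.3% on E14.5, 0.555% on E13.5, 0.382% on E12.5 and 0.190% (6 cells) on E11.5. Libraries from E14.5 on were made with the v3 chemistry and were deeper, at medians of 14333 to 18473 UMIs per cell against 8850.5 and 8593.5 in the whole limb libraries. With every cell thinned to 3000 UMIs, the share was 1.83% in whole limb 1, 2.18% in whole limb 2, 2.09% at E14.5 and 2.55% in the E16.5 distal segment, and at most 0.0817% in each of the other 4 libraries. The sorted E11.5 cells thus had a double-positive share below both whole limb libraries of the same day at either depth, while stage and chemistry cannot be told apart in the later libraries.

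**Figure D1:**
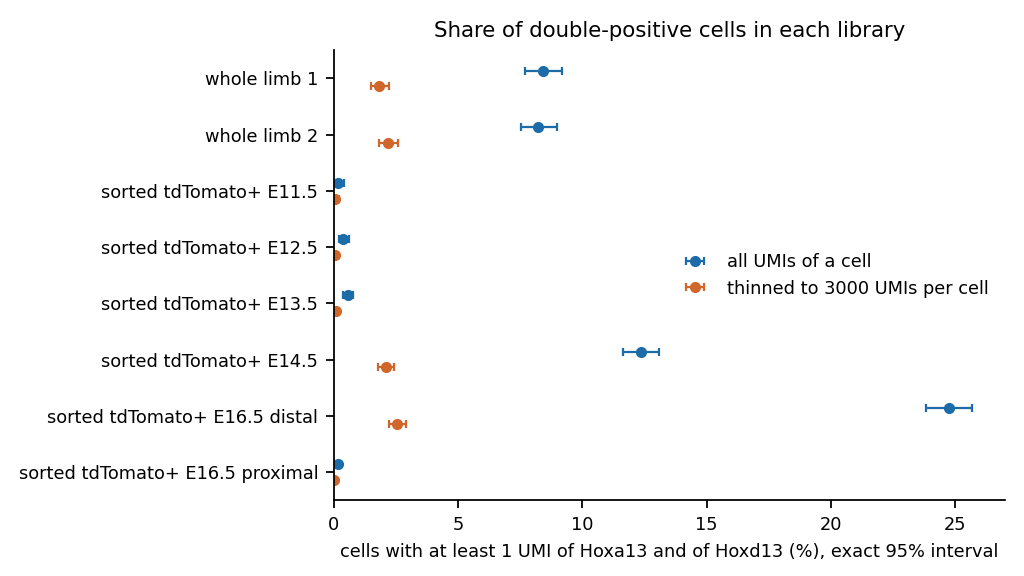
Share of cells (%, x axis) with at least 1 UMI of *Hoxa13* and of *Hoxd13* in each of the 8 libraries, unthinned and with every cell thinned to 3000 UMIs; bars are exact 95% binomial intervals. Both whole limb libraries sit at 8.42% and 8.22%, above the sorted E11.5 library at 0.190%, and the unthinned E16.5 distal library is highest at 24.7%.

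*Hoxd13* was the more widely counted gene of the pair. At least 1 UMI of it was found in 32.8% and 30.8% of the cells of whole limb 1 and whole limb 2, against 10.2% in both libraries for *Hoxa13*. Cells with *Hoxd13* and no *Hoxa13* numbered 1331 and 1284, and cells with *Hoxa13* and no *Hoxd13* only 100 and 111, so most cells with *Hoxa13* were double-positive. The product of the separate shares would put 3.36% and 3.13% of the cells in the double-positive class, below the observed shares. Unthinned cells differ in depth, which by itself can raise the observed share above the product. With every cell thinned to the same depth, the product was 0.640% in whole limb 1 and 0.687% in whole limb 2. The observed thinned shares were 1.83% and 2.18%. All these values come from the UMIs that chose the members, so they are a description and the excess was not tested. *Hoxa13* stood at exactly 1 UMI in 343 and 372 members and reached at most 6 and 5 UMIs in a cell, whereas *Hoxd13* had 3 or more UMIs in 330 and 303 members, with a highest count of 18 and 14. In summed counts *Hoxa13* was at 105 and 108 CPM (the UMIs of a gene in a sum of cells, scaled to the same total in every sum) in double-positive cells and at 2.43 and 2.91 CPM in all other cells. *Hoxd13* was at 383 and 344 CPM in double-positive cells and at 89.2 and 77.9 CPM in the others. The threshold of 1 UMI thus left many cells with *Hoxd13* outside, and 55 and 74 members lay just inside it with 1 UMI of each gene. *Hoxa13* lies on the minus strand of chromosome 6 (GRCm38, 52257694 to 52260880) and *Hoxd13* on the plus strand of chromosome 2 (74668310 to 74671599), and their longest shared run of transcript sequence was 14 bases.

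Members were deeper than the cells around them, with medians of 11906.5 and 11089 UMIs against 8567.5 and 8360, and with 3806.5 and 3628 detected genes against 3112 and 3042. Mitochondrial UMIs were similar, at medians of 2.33% and 2.17% in members and 2.40% and 2.23% in others. The part of this difference in depth in the results below was not tested beyond the thinned values.

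The label of distal limb mesenchyme was checked against marker genes. The 6 limb mesenchyme genes *Prrx1*, *Prrx2*, *Pdgfra*, *Twist1*, *Twist2* and *Tbx5* summed to 1120 and 1107 CPM in members and to 1495 and 1445 CPM in other cells. The hindlimb genes *Tbx4* and *Pitx1* summed to only 1.55 and 2.42 CPM in members. Markers of other cell types were low in members. Haemoglobin and other erythroid genes summed to 7.08 and 5.95 CPM against 320 and 272 CPM in other cells, and the 6 myogenic genes to 22.3 and 7.99 against 96.8 and 79.4 CPM. The 12 epithelial genes summed to 11.2 and 9.85 against 31.1 and 30.2 CPM, the 7 endothelial genes to 25.4 and 16.2 against 28.3 and 33.0 CPM, and the 5 glial genes to 3.62 and 4.83 against 8.88 and 7.78 CPM. The 7 immune genes stood at 5.52 and 5.2 CPM in members and at 5.49 and 6.88 CPM in other cells. *Pax7*, *Krt5*, *Krt14*, *Hemgn*, *Sox10* and *Tyrobp* had no UMI in members. The *C1q* genes had none in members or in other cells.

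The rule was also applied to cells with markers of other types. Of 571 cells with at least 2 myogenic markers, 8 (1.4%, exact interval 0.607 to 2.74) were double-positive, at a median of 12478 UMIs, against 898 of 10299 cells (8.72%) without markers of another type at a median of 8543 UMIs. Of those 8 cells, 7 were in whole limb 1. Among 162 epithelial-marker cells 12 were double-positive (7.41%, 3.89 to 12.6), and among 97 endothelial-marker cells 6 (6.19%, 2.30 to 13), so in these types the share was not distinguishable from that of the mesenchyme at these numbers. Of 12 erythroid-marker cells 4 were double-positive (33.3%, 9.92 to 65.1), an interval above the share of cells without such markers. Of 17 glial-marker cells 0 were, with an exact upper limit of 19.5%. In all, 29 of the 927 members carried markers of another type. The lineage markers were low in both classes, with *Hic1* at 0.345 and 0 CPM in members and 0.747 and 0.828 CPM in other cells and tdTomato at 3.28 and 2.97 against 3.95 and 4.36 CPM. Neither was called, and CreERT2 had no UMI in members or in other cells.

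The main comparison asked which genes differed between double-positive cells and all other cells of the same libraries. UMIs were summed per library and class, which gave 4 sums, and tested with edgeR's quasi-likelihood test with the library as a block. Fold changes are edgeR's log2 values ± SE from these 2 libraries, and a gene is called at a Benjamini-Hochberg adjusted p under 0.05. Of 13499 genes tested, 4480 (33.2%) were called, 2211 (16.4%) higher and 2269 (16.8%) lower. The list counts of this comparison below are to be read beside these shares. With 1 residual degree of freedom and both classes taken from the same suspensions, these p-values measure little beyond counting error: without the block 1990 genes were called and with cells thinned to 3000 UMIs 554, so the size of a change carries more weight below than its call. Thinning left 100 and 124 members, because the rule was applied again to the thinned counts. Members that fell below it were counted among the 5364 and 5558 other cells of that run. Of the 118 genes named and called in this comparison, 49 lost their call there. The sign turned in *Sox9*, *Car2* and *Spry2*, and *Alx4*, *En1* and *Rarb* were then at 0 UMIs in members. Of the other 43 the fold was nearer to 0 in 27 and farther from it in 16, and it moved by over 1.5-fold in *Efnb2* (-0.65 ± 0.35), *Fgf10* (0.32 ± 0.46) and *Fgf18* (-2.28 ± 0.79). *Shh* stood at 1.93 ± 0.86 in thinned cells, *Evx2* at 2.00 ± 0.69, *Ptch1* at 0.51 ± 0.21, *Gli1* at 0.26 ± 0.57, *Hand2* at 0.46 ± 0.17, *Grem1* at 0.65 ± 0.28 and *Etv4* at 0.33 ± 0.34, and *Sall1*, *Sall3*, *Sall4*, *Tfap2a* and *Tfap2c* lay between 0.55 and 0.93. The remaining genes that lost their call were *Atf3*, *Bmp2*, *Bmp4*, *Boc*, *Cbfa2t3*, *Cdk1*, *Cyp26b1*, *Efna5*, *Etv5*, *Fgfr2*, *Fzd10*, *Gas1*, *Hoxa7*, *Hoxa10*, *Hoxb9*, *Hoxd4*, *Hoxd8*, *Igf2bp3*, *Ldha*, *Mycn*, *Pdgfa*, *Ppp1r14b*, *Ror1*, *Slc2a3*, *Stra6*, *Tbx2*, *Tcf7* and *Uhrf1*. By size alone, 151 of 6185 genes at 20 CPM or more (2.44%) were at least 2-fold apart in both libraries, 28 (0.453%) higher and 123 (1.99%) lower.

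Neighbours of *Hoxd13* at the 5′ end of the HoxD cluster were higher in double-positive cells. *Hoxd12* was at 189 and 187 CPM in members and at 54.9 and 51.1 CPM in other cells (1.83 ± 0.05). *Hoxd11* was at 319 and 330 against 178 and 182 CPM (0.85 ± 0.03), and *Hoxd10* at 115 and 98.9 against 77.2 and 70.1 CPM (0.55 ± 0.05). The rise thus shrank from *Hoxd12* to *Hoxd10* and turned at *Hoxd9*, at 32.3 and 23.4 against 67.6 and 60.9 CPM (-1.20 ± 0.08), and *Hoxd8* (-1.15 ± 0.16). *Evx2*, the homeobox gene beyond *Hoxd13*, was at 11.9 and 12.8 against 3.16 and 2.53 CPM (2.11 ± 0.19). In the HoxA cluster the noncoding RNA *Hottip*, which lies beyond *Hoxa13*, was at 14.5 and 18.8 against 3.43 and 3.81 CPM (2.20 ± 0.16), and *Hoxa10* at 276 and 305 against 243 and 246 CPM (0.25 ± 0.03). *Hoxa11*, the gene of the middle segment, went the other way, at 18.5 and 16.4 CPM in members and 42.0 and 36.4 CPM in other cells (-1.17 ± 0.10). Members lay above the other cells in both libraries for *Hoxd12*, *Hoxd11*, *Hoxd10*, *Evx2*, *Hottip* and *Hoxa10*, and below them in both for *Hoxd9*, *Hoxd8* and *Hoxa11*. Of the 10 other 5′ HoxA and HoxD genes tested, 7 were higher and 3 lower, with a median of 0.40 against 0.00 over all genes.

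The HoxB and HoxC genes were mostly lower. Of 15 tested, 12 were lower, with a median of -2.98. An example is *Hoxb2* at 1.90 and 0.929 CPM in members and 19.6 and 23.5 CPM in other cells (-3.90 ± 0.22). *Hoxb9* was the only one higher, at 5.35 and 4.65 against 2.33 and 1.61 CPM (1.36 ± 0.27). Of 10 genes of the 3′ HoxA and HoxD group, 4 were lower, including *Hoxd4* (-1.19 ± 0.15) and *Hoxa7* (-0.77 ± 0.09), and 1 was higher, *Hoxa3* (0.45 ± 0.16). Over all genes tested 16.8% were lower and 16.4% higher.

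The levels on both sides of the threshold are given as a description, in classes set by the same UMIs that chose the members. *Hoxd12* was at 19.1 and 19 CPM in cells with neither gene, at 132 and 128 CPM in cells with *Hoxd13* only, at 116 and 98.8 CPM in members with 1 UMI of each gene, and at 198 and 203 CPM in members with more. The class with 1 UMI of each gene is limited to 1 *Hoxd13* UMI per cell, while cells with *Hoxd13* only had no upper limit. The lower *Hoxd12* level just inside the threshold is therefore not read as a difference across it. *Shox2* stood at 429 and 427 CPM with neither gene, at 254 and 225 CPM with *Hoxd13* only, at 134 and 104 CPM just inside the threshold and at 57.8 and 32.5 CPM in the remaining members. *Meis2* fell from 147 and 164 CPM with neither gene to 7.52 and 12.2 CPM in members with more than 1 UMI of either gene, with 11.6 and 31.3 CPM just inside the threshold. Cells with *Hoxa13* only had *Hoxd12* at 27.5 and 35.4 CPM, above cells with neither gene and below members in both libraries, and *Msx1*, a homeobox gene of distal mesenchyme, at 748 and 597 CPM. Of the 6 myogenic genes, *Lbx1* and *Pax3* lay above cells with neither gene in both libraries, *Lbx1* at 19.2 and 30.3 against 13.7 and 12.2 CPM. *Myog*, at 6.41 and 3.37 against 49.4 and 37.1 CPM, and *Myf5* lay below them, and *Myod1* and *Pax7* above in one library and below in the other. These classes differ in depth, with median UMIs from 7841 and 7785 in cells with neither gene to 12306 and 11266 in members with more than 1 UMI of either gene.

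**Figure D2:**
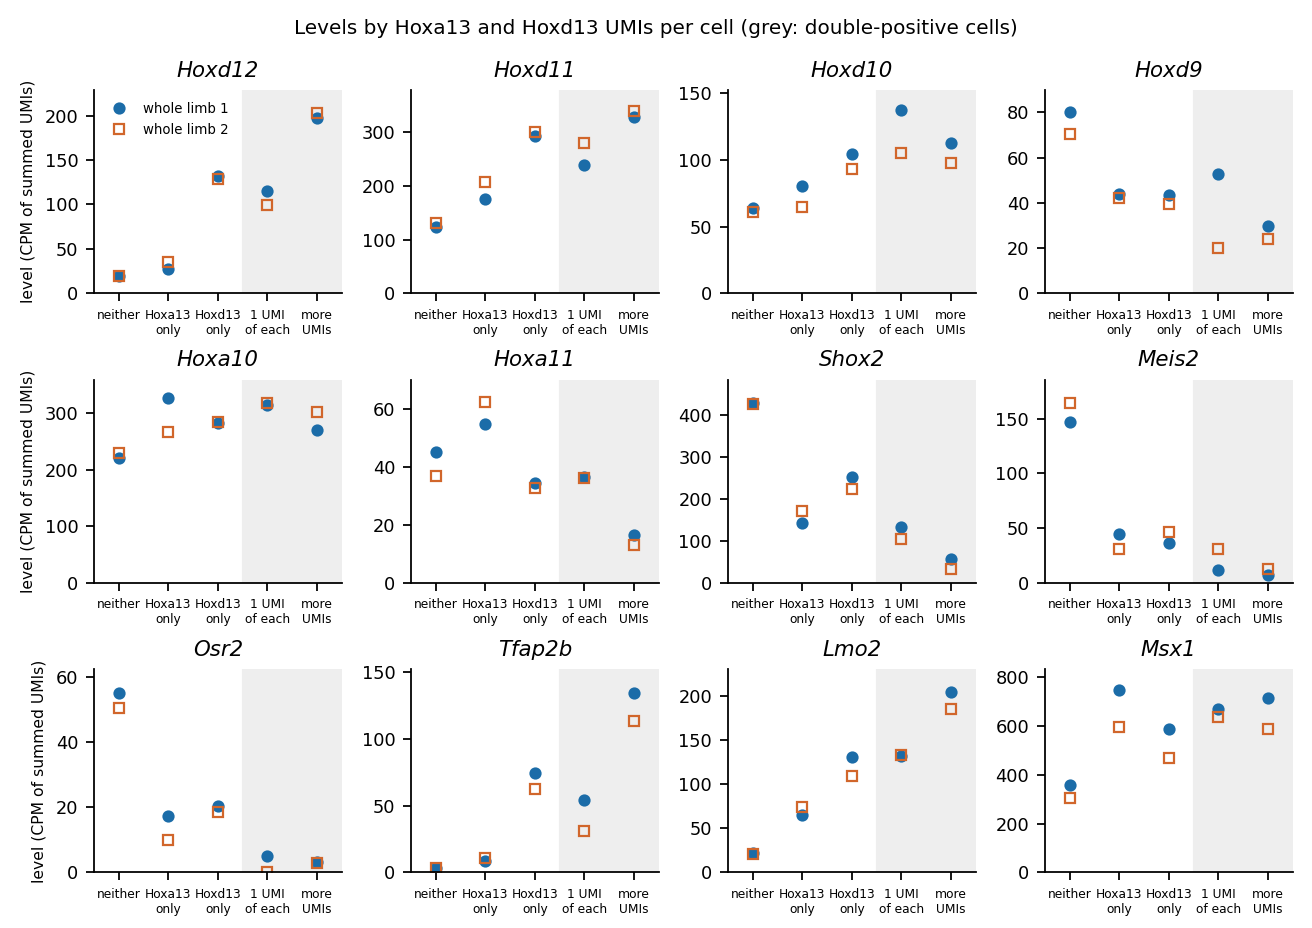
Level (CPM of summed UMIs, y axis) of 12 genes in 5 classes of cells set by their *Hoxa13* and *Hoxd13* UMIs (x axis), with 1 point per whole limb library and the double-positive classes shaded grey. *Hoxd12* is at 19.1 and 19 CPM in cells with neither gene and at 198 and 203 CPM in members with more than 1 UMI of either gene, while *Shox2* goes down from 429 and 427 to 57.8 and 32.5 CPM. Members with 1 UMI of each gene lie below cells with *Hoxd13* only in *Hoxd12*, but are limited to 1 *Hoxd13* UMI per cell, which the latter are not.

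Transcription factors of distal mesenchyme were mostly higher. *Tfap2b*, an AP-2 factor, showed the largest increase among called genes that reached 20 CPM, at 126 and 101 CPM in members and 26.0 and 20.7 CPM in other cells (2.29 ± 0.06). *Lmo2*, which encodes a LIM-only partner protein, was at 196 and 177 against 57.6 and 47.8 CPM (1.83 ± 0.05). Members chosen at full depth were also looked at with every cell thinned to 3000 UMIs. *Lmo2* was then found in 39.8% and 40.7% of members and 10.9% and 9.26% of other cells, and *Hoxd12* in 38.9% and 34.3% against 11.6% and 10.8%. *Msx1* was at 710 and 593 against 439 and 361 CPM (0.71 ± 0.02). *Lhx2*, a LIM homeobox gene that distal mesenchyme uses to answer ridge signals, was at 159 and 156 against 93.7 and 98.4 CPM (0.72 ± 0.04). Its relative *Lhx9* was alike in both, at 208 and 208 against 206 and 211 CPM, and was not called. The zinc finger genes *Sall1* (1.04 ± 0.08), *Sall3* (0.86 ± 0.06) and *Sall4* (1.07 ± 0.10), the AP-2 genes *Tfap2a* (1.18 ± 0.11) and *Tfap2c* (1.07 ± 0.08) and the Notch target *Hey1* (1.03 ± 0.06) were all higher by 0.86 to 1.18. Of the 20 genes of this list, 13 were higher and 3 lower. Those lower were the T-box genes *Tbx3*, at 38.5 and 40.9 against 102 and 109 CPM (-1.40 ± 0.06), and *Tbx2* (-0.73 ± 0.14), and the homeobox gene *Zfhx3* (-1.35 ± 0.04).

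Genes of proximal identity were nearly all lower, 11 of 12 with a median of -2.28. *Meis2*, which encodes a homeodomain factor of the upper arm mesenchyme, was at 7.94 and 15.1 CPM in members and 110 and 127 CPM in other cells (-3.37 ± 0.09). *Meis1* was at 3.11 and 5.95 against 33.8 and 36.1 CPM (-2.96 ± 0.15). *Shox2*, needed for the upper arm bone, was at 65.7 and 43.1 against 367 and 362 CPM (-2.73 ± 0.05). With members chosen at full depth and every cell then thinned to 3000 UMIs, *Meis2* was found in 2.39% and 2.57% of members and 21.2% and 22.9% of other cells. *Irx3* and *Irx5*, Iroquois homeobox genes of the proximal and anterior bud, were nearly absent, *Irx3* at 1.04 and 1.86 against 37.5 and 40.2 CPM (-4.75 ± 0.19) and *Irx5* at 0.345 and 1.86 against 19.9 and 21.1 CPM (-4.24 ± 0.24). The Meis partner *Pbx3* was lower (-1.40 ± 0.09), whereas *Pbx2*, at 64.7 and 66.2 against 63.2 and 68.0 CPM, was not called. For each of these genes but *Pbx2* the members lay below the other cells in both libraries.

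Because HOX13 proteins are known to bind the motif CAATAAA, it was searched on both strands in the promoters of the 15 genes with the largest fold in each direction (RefSeq, GRCm38.p6, 250 bases before to 50 after the gene start). A promoter was found for 12 of the 15 higher genes and 9 of the 15 lower genes. None of the 12 held the motif, and 1 of the 9 did, that of *Meis2*, against 3.03% of 9948 tested genes and 5.33% of all 27025 promoters. A match or its absence is a description of these letters only. The stretch of the *Meis2* promoter with the match is shown because it is the single match among the genes named for their fold. It lies at chr2:116064816-116064842 and is written 5′ to 3′ on the minus strand, that of the gene. The match, in capitals, reads CAATAAA on the opposite strand and lies 207 bases before the RefSeq gene start used for this promoter. In the gene coordinates used above for *Hoxa13* and *Hoxd13*, *Meis2* spans 115863064 to 116065839, so there the stretch lies within the gene.
*Meis2* promoter: catccaggagTTTATTGgagcgcagac

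**Figure D3:**
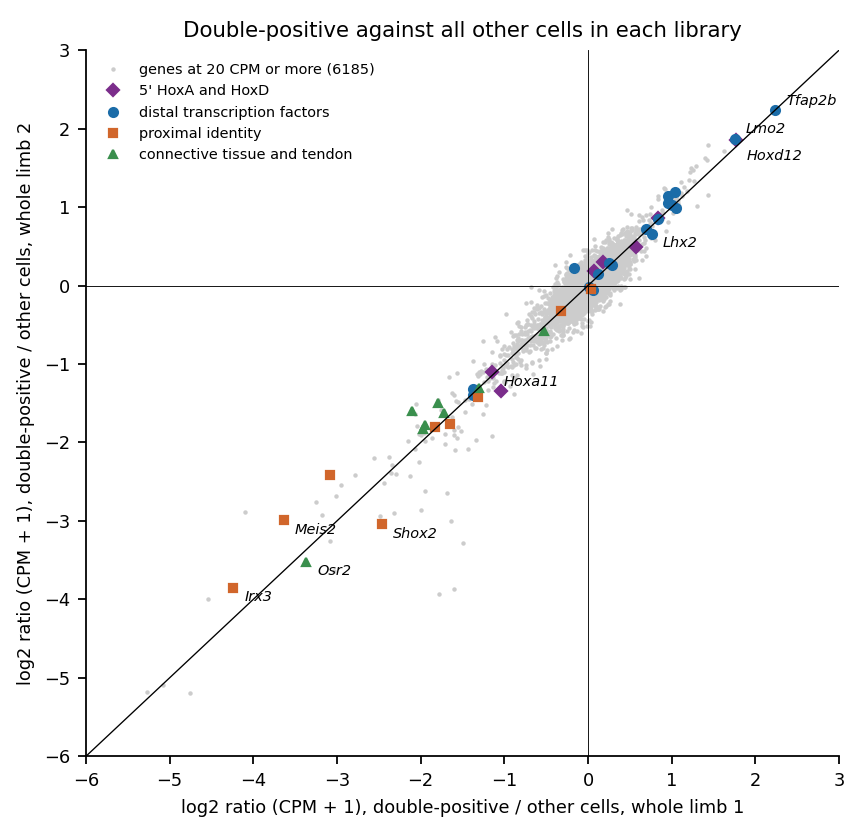
Log2 ratio (CPM + 1) of double-positive to other cells in whole limb 1 (x axis) and whole limb 2 (y axis) for the 6185 genes at 20 CPM or more, with 4 gene lists in colour and the line of equality. *Tfap2b*, *Hoxd12* and *Lmo2* lie at the upper right and *Irx3*, *Meis2*, *Osr2* and *Shox2* at the lower left in both libraries.

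Signals and receptors of the distal and posterior bud were divided. *Shh*, the posterior signal, was counted with 72 and 59 UMIs in members, at 12.4 and 11 CPM against 2.07 and 2.42 CPM in other cells (2.39 ± 0.20), and was found in only 27 and 29 members. Its target *Ptch1*, the hedgehog receptor, was at 70.6 and 83.8 against 50.9 and 49.4 CPM (0.62 ± 0.06), and the target and effector *Gli1* was also higher (0.74 ± 0.13), while *Gli3* was not called at 70.9 and 79.7 against 76.2 and 84.3 CPM. The co-receptor genes *Cdon* (-1.74 ± 0.13), *Boc* (-0.92 ± 0.13) and *Gas1* (-0.19 ± 0.03) were lower. *Hand2*, a bHLH gene of the posterior bud, was at 128 and 124 against 83.6 and 78.1 CPM (0.64 ± 0.05), and *Grem1*, a BMP antagonist, was higher (0.59 ± 0.08). Of the 18 hedgehog and posterior genes, 6 were higher and 8 lower, against 16.4% and 16.8% of all genes tested. Those lower included the T-box genes *Tbx2* and *Tbx3* given above. None of the 6 higher, which were *Shh*, *Ptch1*, *Gli1*, *Hand2*, *Grem1* and *Bmp2*, was called with thinned cells.

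On the anterior side 8 of 10 genes were lower and 1 higher. The lower genes include *Irx3* and *Irx5*, which are also counted in the proximal list, and other lists share genes too. *Pax1*, a paired-box gene of the anterior proximal bud, was at 1.04 and 4.65 CPM in members and 33.8 and 40.6 CPM in other cells (-3.73 ± 0.16), and *Alx4* was lower as well (-3.37 ± 0.37). *Lmx1b*, the gene of dorsal mesenchyme, was not called, at 16.4 and 11.7 against 14.3 and 15.8 CPM, and *En1*, made in ventral ectoderm, was at 0 and 0.372 against 5.14 and 4.75 CPM.

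FGF genes went both ways. *Fgf18*, an FGF ligand, had the largest change of the list, at 6.21 and 5.39 CPM in members and 17.3 and 13.5 CPM in other cells (-1.40 ± 0.17), and was lower against single-positive cells too (-0.95 ± 0.19). *Fgf10*, the mesenchymal signal to the ridge, was at 26.2 and 25.8 against 13.6 and 13.1 CPM (0.96 ± 0.11). The FGF-induced factors *Etv4* (0.77 ± 0.09) and *Etv5* (0.42 ± 0.07) and the feedback inhibitor *Spry4* (0.39 ± 0.10) were higher, whereas its relative *Spry2* was lower (-0.33 ± 0.08, but 0.36 and not called in thinned cells), *Dusp6* and *Spry1* were not called, and the receptor genes *Fgfr1* (-0.43 ± 0.04) and *Fgfr2* (-0.72 ± 0.12) were lower. Of 14 genes 6 were higher and 4 lower, against 16.4% and 16.8% of all genes tested.

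Among Wnt genes *Wnt5a*, the noncanonical ligand of the distal bud, stood out at 325 and 342 CPM in members and 149 and 154 CPM in other cells (1.14 ± 0.03). *Fzd10*, a Frizzled receptor (1.14 ± 0.09), *Tcf7*, a nuclear effector (0.67 ± 0.10), and *Rspo3*, an enhancer of Wnt signals (0.62 ± 0.06), were higher. Secreted inhibitors split, with *Frzb* higher (0.63 ± 0.05) and *Sfrp1* (-2.04 ± 0.10), *Sfrp2* (-1.17 ± 0.07) and *Wif1* (-1.71 ± 0.10) lower. *Ror1*, a receptor for Wnt5a, was at 1.90 and 1.30 against 7.78 and 9.56 CPM (-2.42 ± 0.27). Over the list 8 of 22 genes were higher and 9 lower, against 16.4% and 16.8% of all genes tested.

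BMP genes were likewise divided, 9 of 21 higher and 8 lower. *Bambi*, a decoy receptor, was at 265 and 250 against 162 and 154 CPM (0.71 ± 0.04), and *Bmp2* was higher (0.39 ± 0.07), while *Bmp4* (-0.46 ± 0.10), *Id4* (-0.89 ± 0.05) and the antagonist *Sostdc1* (-2.01 ± 0.15) were lower. Of the retinoic acid list, *Cyp26b1*, which degrades retinoic acid, was the one gene higher, at 79.7 and 96.8 against 62.5 and 71.7 CPM (0.40 ± 0.05). The binding protein gene *Crabp2* (-0.88 ± 0.03), the uptake receptor *Stra6* (-1.23 ± 0.14) and the receptor gene *Rarb*, at 0 and 0.557 against 5.27 and 5.84 CPM (-4.34 ± 0.48), were among the 7 of 12 lower. Over all genes tested 16.4% were higher and 16.8% lower.

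Eph receptors and ephrins, which sort cells by contact, moved in both directions, with 6 of 19 higher and 7 lower. *Epha4* was at 264 and 267 against 155 and 158 CPM (0.77 ± 0.04) and the ligand *Efna1* at 50.6 and 49.995 against 18.1 and 21.9 CPM (1.34 ± 0.08). *Epha7* (-1.88 ± 0.10), *Efnb2* (-1.27 ± 0.11) and *Efna5* (-0.89 ± 0.09) were lower.

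Genes of differentiated mesenchyme were low in members. *Sox9*, the master factor of cartilage, was slightly higher at 241 and 300 against 219 and 232 CPM (0.26 ± 0.03), a difference that was not called without the library block (0 of 13 chondrogenic genes higher) and that turned to -0.03, not called, with thinned cells. *Col2a1*, the cartilage collagen, was at 16.7 and 17.7 against 67.6 and 72.8 CPM (-2.02 ± 0.09), and *Lect1*, a cartilage matrix gene, was lower (-4.66 ± 0.39). Of the 13 chondrogenic genes tested, 11 were lower, *Sox5* (-0.56 ± 0.07) and *Sox6* (-1.12 ± 0.11) among them. All of the 17 connective tissue and tendon genes but the tendon homeobox gene *Mkx* were lower. *Osr2*, a zinc finger gene of irregular connective tissue, was at 3.28 and 2.60 against 43.2 and 40.3 CPM (-3.82 ± 0.16), *Scx*, the tendon bHLH gene, at 12.3 and 13.2 against 50.3 and 47.8 CPM (-1.95 ± 0.10), and the collagen gene *Col3a1* at 35.7 and 48.3 against 143 and 174 CPM (-1.91 ± 0.06). The general limb gene *Prrx1* was lower too, at 380 and 356 against 681 and 644 CPM (-0.84 ± 0.03).

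**Figure D4:**
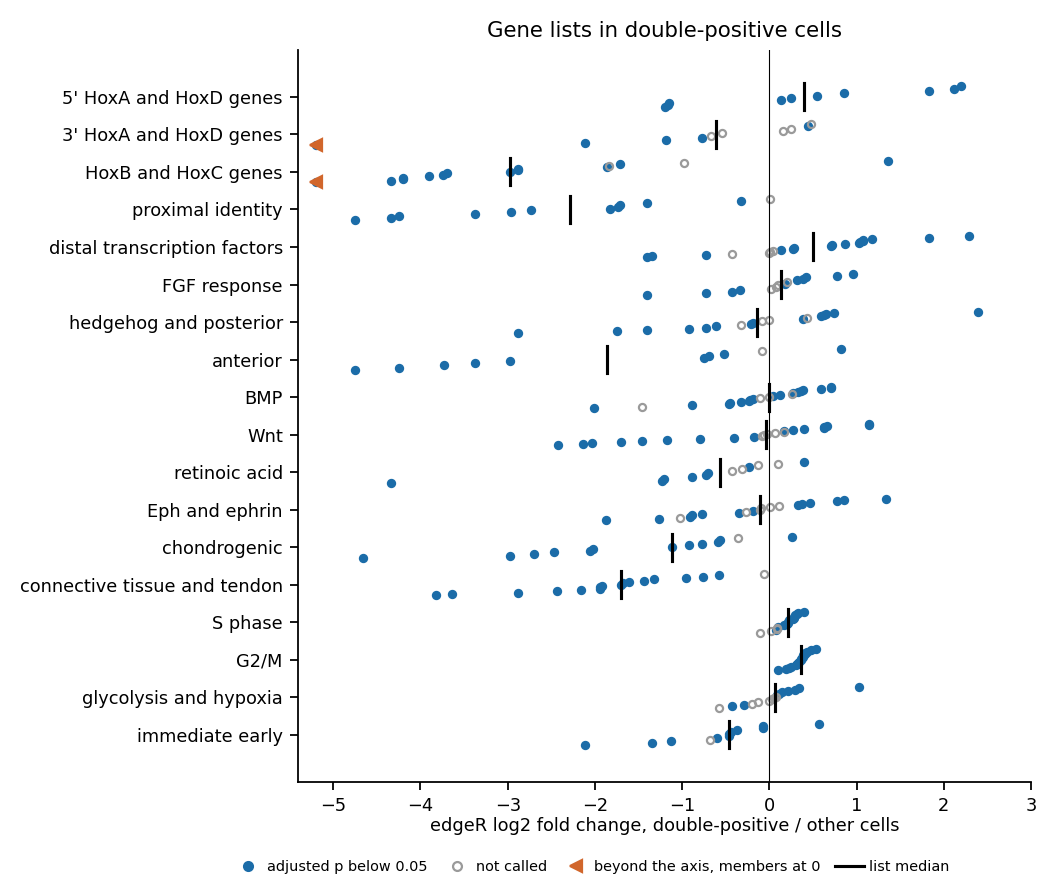
edgeR log2 fold change (x axis) of each tested gene of 18 lists in double-positive against other cells, filled where called and open where not, with the list median as a black bar; triangles mark genes beyond the axis at 0 UMIs in members. The proximal, HoxB and HoxC, anterior, and connective tissue lists lie mostly to the left, with medians of -2.28, -2.98, -1.86 and -1.71, and the G2/M list lies wholly to the right with a median of 0.36. Lists share some genes, such as *Irx3* and *Irx5* in the proximal and anterior lists.

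Genes of mitosis were higher by small factors. All 18 G2/M genes were called higher, with a median of 0.36; *Cenpf*, a kinetochore gene, was at 317 and 309 against 242 and 209 CPM (0.48 ± 0.03), and *Cdk1*, the mitotic kinase, at 275 and 315 against 227 and 228 CPM (0.38 ± 0.03). Of 18 S phase genes 14 were higher, with a median of 0.21, such as *Uhrf1* (0.40 ± 0.04). These calls moved with thinning and with the fit. With cells thinned to 3000 UMIs 6 of the G2/M genes and 1 of the S phase genes were higher, beside 166 of all 11791 genes tested. Without the library block 13 and 6 were higher. Thinning also left fewer members, so the part of depth alone was not tested. For members chosen at full depth, the share of cells with UMIs of at least 3 G2/M genes at 3000 UMIs was 90.4% and 87.6%, against 69.3% and 68.3% of other cells. Unthinned it was 98.3% and 98.1% against 82.4% and 82.0%.

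Further genes with a large fold belonged to none of these lists. Those higher included *Cdc42ep3*, an effector of the GTPase CDC42, at 149 and 149 against 47.8 and 44.7 CPM (1.69 ± 0.05), *Jag1*, a Notch ligand, at 63.2 and 66.3 against 23.4 and 20.8 CPM (1.56 ± 0.08), *Slc25a33*, a mitochondrial nucleotide carrier, at 155 and 183 against 65.4 and 64.1 CPM (1.38 ± 0.05), and *Pmaip1*, the gene of the apoptosis protein NOXA, at 384 and 311 against 165 and 122 CPM (1.28 ± 0.03). *Tspan18*, *Gja3*, *Pdzd2*, *Cbfa2t3*, *Crmp1*, *Gm2694* and *Ctsc* lay between 1.34 and 1.74 on the log2 scale. *Pf4*, a platelet gene, had the largest decrease among called genes that reached 20 CPM, haemoglobin genes aside, at 0.518 and 0.743 CPM in members and 50.4 and 58.4 CPM in other cells (-6.42 ± 0.20), beside the low erythroid genes given above. *Igf1* (-3.77 ± 0.18), *Igfbp5* (-3.08 ± 0.14) and *Fibin* (-3.14 ± 0.11) were also lower, as were *Foxp2*, *Pcdh10* and *2700069I18Rik*. With cells of other types left out of both classes, *Pf4* stood at -5.36. The lists of other types held no platelet genes, so cells with *Pf4* were not left out on that ground. Of the 4480 calls, 4100 were among the 4448 made without cells of other types. Of these, 3 went the opposite way and are named for that after their values were seen. The growth factor gene *Pdgfa* was at 21.2 and 29.4 CPM in members and 34.6 and 29.7 CPM in other cells (-0.35 ± 0.09) and turned to 1.12 ± 0.12, the carbonic anhydrase gene *Car2* turned from -0.62 ± 0.25 to 0.84 ± 0.30, and *Ppp1r14b* from -0.09 ± 0.03 to 0.10 ± 0.03.

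A closer comparison set double-positive cells against single-positive cells, the 1431 and 1395 cells with UMIs of only one of the defining genes. Here 942 of 11873 genes (7.93%) were called, 372 (3.13%) higher and 570 (4.8%) lower, but 117 without the library block and 9, all lower, with thinned cells. *Shox2* was at 65.7 and 43.1 CPM in members and 246 and 220 CPM in single-positive cells (-2.11 ± 0.05), and *Meis2* at 7.94 and 15.1 against 37.3 and 45.4 CPM (-1.87 ± 0.12). The imprinted Notch-type gene *Dlk1* (-1.76 ± 0.07), *Fibin* (-1.62 ± 0.15) and the homeobox gene *Meox2* (-1.55 ± 0.13) were lower as well. *Tfap2b* was at 126 and 101 against 69.8 and 58.1 CPM (0.82 ± 0.06), *Hoxd12* at 189 and 187 against 125 and 121 CPM (0.60 ± 0.04), and *Lmo2* (0.67 ± 0.04), *Tspan18* (0.64 ± 0.12) and *Cables1* (0.60 ± 0.12) were higher. All of these but *Tspan18* and *Cables1* were also called without the library block, and only *Shox2* and *Dlk1* were also called in thinned cells, where *Cables1* turned to -0.047. Decreases were thus larger than increases between these neighbouring classes.

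By group, 9 of 12 proximal genes were lower and none higher, and 11 of 20 distal transcription factors were higher and 3 lower. The list counts here are to be read beside 3.13% higher and 4.8% lower of all genes tested. Of all genes, only 19 were called higher without the library block, and none with thinned cells. Of the 5′ Hox genes *Evx2*, *Hottip*, *Hoxd11* (0.16 ± 0.03, but -0.092 in thinned cells) and *Hoxd12* were higher, *Hoxa11* (-1.04 ± 0.11), *Hoxd8* and *Hoxd9* (-0.58 ± 0.09) lower, and *Hoxa10* (0.01 ± 0.03) and *Hoxd10* (0.13 ± 0.05) not called. *Shh* was at 12.4 and 11 against 4.27 and 5.66 CPM (1.22 ± 0.19). Of 15 connective tissue genes 10 were lower, and of 18 G2/M genes 14 were higher, while none of the 18 S phase genes was called. Median depth also differed between members and the larger single-positive class, at 11906.5 and 11089 against 10564 and 9987.5 UMIs in cells with *Hoxd13* only.

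Members were not uniform, and were split by UMIs of *Hand2*, *Sox9* and *Lmx1b* in turn. *Hand2* was found in 311 and 314 members. Between members with and without it, 87 of 9812 genes (0.887%) were called, 55 (0.561%) higher and 32 (0.326%) lower. *Tbx3*, a posterior T-box gene, was at 45.3 and 49.1 CPM with *Hand2* and 22.0 and 22.0 CPM without (1.10 ± 0.17). *Asb4* was at 235 and 257 against 410 and 408 CPM (-0.74 ± 0.06), and *Gata6*, a zinc finger factor known to hold back *Shh* in the anterior bud, at 11 and 9.08 against 22.0 and 28.7 CPM (-1.33 ± 0.24). *Fam69b*, *Zfp503*, *Ckap2*, *Reep4* and *Ttc28* were higher by 0.80 to 0.97, and *Epha3* (-1.22 ± 0.23), *Tnfrsf12a* and *Gadd45b* were lower. *Shh* was at 16.1 and 12.3 against 3.56 and 7.95 CPM (1.30 ± 0.33), and *Hoxd12* at 206 and 209 against 149 and 136 CPM (0.54 ± 0.08, but -0.25 in thinned cells). Of the 18 G2/M genes 9 were higher, beside a median depth of 12656 and 11578 UMIs with *Hand2* and 11265 and 10378 without. Without the library block only *Tbx3* and *Asb4* were called, and with thinned cells no gene was (145 of 3248 at an unadjusted p under 0.05 in edgeR).

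*Sox9* was found in 353 and 380 members, at a median depth of 12082 and 11369.5 UMIs against 11658 and 10352 in members without it. Its split called 148 of 9939 genes (1.49%), 67 (0.674%) higher and 81 (0.815%) lower. *Shh* was at 6.67 and 5.6 CPM in members with *Sox9* and at 32.4 and 37.2 CPM in those without (-2.49 ± 0.26), and was found in 3.97% and 3.16% of the former and 12.1% and 19.5% of the latter. *Ebf1*, an early B-cell factor gene also made in mesenchyme, was at 126 and 133 against 44.7 and 51.4 CPM (1.43 ± 0.14), and *Phlda2*, an imprinted growth gene, was higher by 1.43 ± 0.18. *Fam181b*, *Sulf1*, *Tagln* and *Sparc* were higher by 1.15 to 1.23, and *Rprm*, *Bmp4* (-0.84 ± 0.23), the Wnt target *Axin2* (-0.68 ± 0.16) and the glycolytic *Hk2* (-0.65 ± 0.14) were lower. *Col9a1* was the one chondrogenic gene called, at 75.6 and 82.2 against 40.9 and 43.7 CPM (0.88 ± 0.16), while *Col2a1* was at 18.7 and 18.8 against 10.0 and 12 CPM and was not called. Of 19 distal transcription factors 4 were lower with *Sox9*, *Msx1* (-0.26 ± 0.05), *Lhx2* (-0.39 ± 0.09), *Lhx9* (-0.36 ± 0.08) and *Mycn* (-0.61 ± 0.12), and 1 was higher, *Sall3* (0.55 ± 0.14), and with thinned cells *Mycn* turned to 0.47 and *Sall3* to -1.01, neither called. Without the library block 9 genes were called, *Shh*, *Ebf1* and *Phlda2* among them, with thinned cells 1, and without the cells with the highest doublet scores 89.

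*Lmx1b*, the dorsal gene, was found in 72 and 53 members, and 39 of 9938 genes (0.392%) were called between members with and without it, 23 (0.231%) higher and 16 (0.161%) lower. *Nrp2*, a semaphorin and VEGF co-receptor, was at 331 and 389 CPM with *Lmx1b* and 116 and 138 CPM without (1.52 ± 0.09), and was the single gene called without the library block. *Meis2* was at 17.4 and 32.2 against 5.88 and 12.6 CPM (1.46 ± 0.31) and *Runx1t1* was higher by 1.44 ± 0.23. *Grem1* was at 80.4 and 70.3 against 34.8 and 47.3 CPM (0.94 ± 0.16). *Stmn2*, a tubulin-binding gene of neurons, was at 2.91 and 7.32 against 22.0 and 18.7 CPM (-2.12 ± 0.41), and *Adamts1*, a matrix protease, at 12.6 and 24.9 against 42.6 and 35.8 CPM (-1.16 ± 0.24). *C130021I20Rik* and *Taf4b* were higher, and *Mfap3l*, *Cflar*, *Sparc* and *Dpysl3* lower. *C130021I20Rik* is a neighbour of the splitting gene on chromosome 2, starting at 33641193 on the plus strand, beside *Lmx1b* at 33640511 on the minus strand. Median depth was 13387.5 and 11978 UMIs with *Lmx1b* and 11790.5 and 10971 without. Except for *Nrp2*, the genes named for their fold in this split were not called once the cells with the highest doublet scores were left out, where 4 genes were called, and with thinned cells no gene was (157 of 3061 at an unadjusted p under 0.05 in edgeR).

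**Figure D5:**
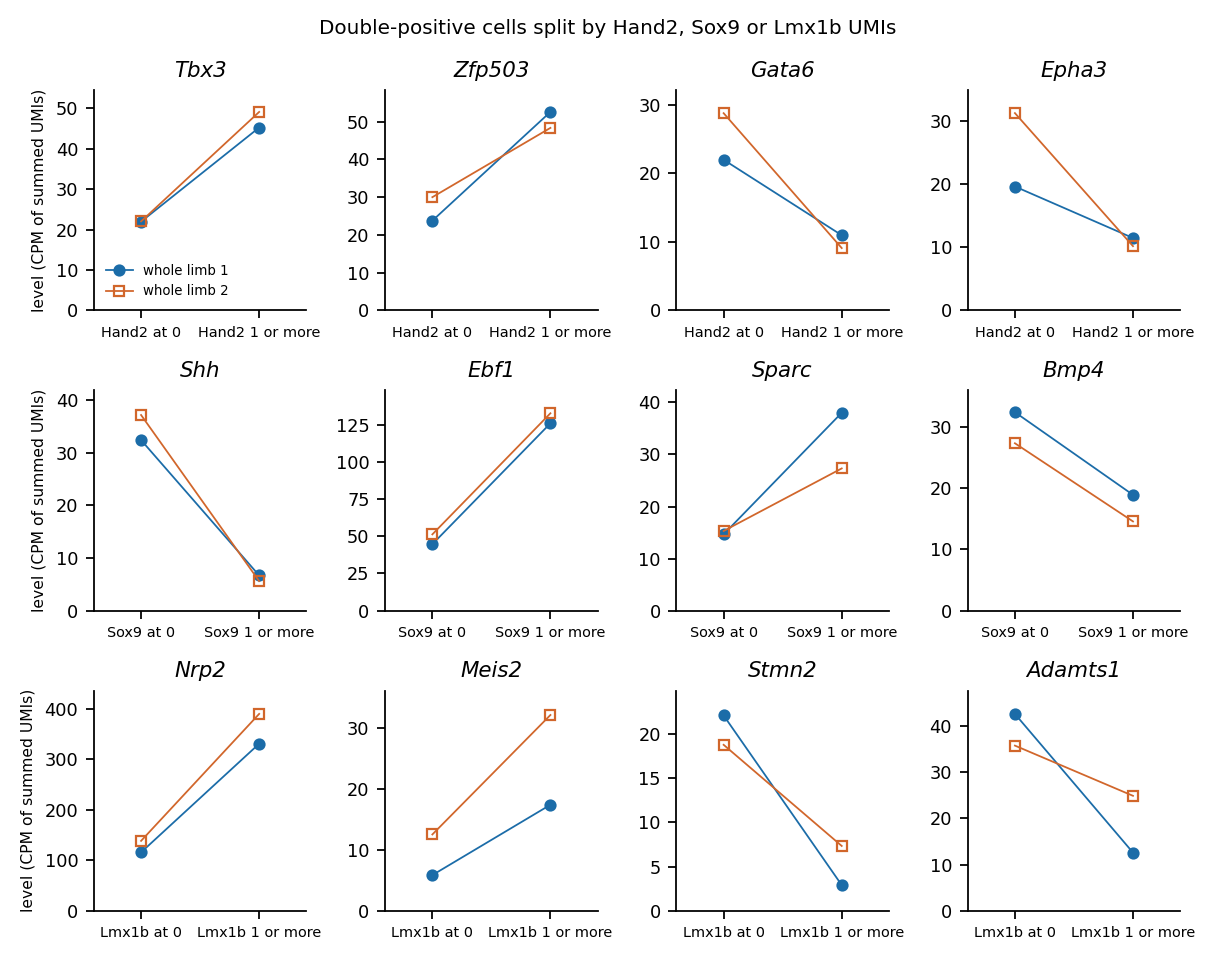
Level (CPM of summed UMIs, y axis) of 4 genes for each split of the double-positive cells by *Hand2*, *Sox9* or *Lmx1b* (x axis: 0 or at least 1 UMI), with lines joining the classes of the same library. *Shh* goes from 32.4 and 37.2 CPM without *Sox9* to 6.67 and 5.6 CPM with it, and *Nrp2* from 116 and 138 CPM without *Lmx1b* to 331 and 389 CPM with it.

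Whether the *Sox9* contrast differed between double-positive and other cells was tested as an interaction over 8 sums. It called 99 of 12619 genes (0.785%), 67 (0.531%) higher and 32 (0.254%) lower, and none without the library block (686 at an unadjusted p under 0.05 in edgeR) or with thinned cells (519). Without cells of other types 44 of the 99 were among the 87 genes called. *Shh* fell more strongly with *Sox9* in members than in other cells, where it was at 3.01 and 3.09 CPM without and 1.54 and 2.06 CPM with *Sox9* (difference -1.71 ± 0.35). *Sox5*, a partner of *Sox9* in cartilage, was at 39.3 and 36.1 CPM without and 34.7 and 40.3 CPM with *Sox9* in members, while in other cells it was at 33.3 and 32.1 without and 66.9 and 69.2 with *Sox9* (difference -1.05 ± 0.17). Of the 6 genes with the largest positive difference 4 were muscle genes. In members with *Sox9* they were higher in whole limb 1 than in whole limb 2 (*Ttn* at 26.2 and 0.224 CPM). In other cells each was lower with *Sox9* in both libraries, such as *Myog* at 55.9 and 48.4 CPM without and 22.4 and 14.8 CPM with it.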

How the data were processed

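Single-cell 3′ libraries (10x Genomics) had been counted by the authors with Cell Ranger against a modified mm10 genome. The deposited matrices hold UMI counts per gene and cell, not normalized; file headers name Cell Ranger 3.0.2 or 6.0.1 for sorted libraries and no version for the whole limb libraries. Members, gene lists and the other choices were made with earlier results of these data known. UMIs were summed per library and class and tested with edgeR 4.0.16 (TMM, filterByExpr, quasi-likelihood F test, Benjamini-Hochberg), with limma 3.58.1 and DESeq2 1.42.0 as alternatives, in R 4.3.3. SE is the fold divided by the square root of F. Members and other cells come from the same suspensions, so the library was a block; same-library sums deviated together (r = 0.37 over 13499 genes, 0.66 over 5645 genes at 20 CPM or more). *Hoxa13*, *Hoxd13* and each splitting gene were not tested. Named genes are the 15 with the largest fold in each direction (6 in the other comparisons) among called genes that reached 20 CPM in their higher class and went the same way in both libraries, without haemoglobin, mitochondrial and sex-linked genes, plus examples of the lists; 1 such gene of the *Lmx1b* split, the agouti gene, is counted only, and some genes that met the rule are not reported here. Thinning drew 3000 UMIs per cell without replacement with a fixed seed. Tests and double-positive shares with thinned cells applied the rule again to the thinned counts. The shares of members with *Lmo2*, *Hoxd12*, *Meis2* or G2/M genes at 3000 UMIs kept the members chosen at full depth. Scrublet (scanpy 1.11.5) called 1 and 4 doublets, under 0.5% of cells, so it was taken as not having worked, no doublets were removed, and the 5% of cells with the highest scores were left out as an added alternative. The scripts were tested on simulated data. Gene coordinates are those of GRCm38. Columns of other series numbered 0.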

Additional observations from a re-analysis of the deposited data

Results flagged for a closer look

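The contrast of cells with and without *Sox9* differed between double-positive and other cells in 99 genes by the interaction test (edgeR, adjusted p under 0.05). Given here are 11 of those with the largest differences in each direction, as log2 differences, members minus other cells. None of them was called without the library block or with thinned cells. *Osr1*, a zinc finger gene of connective tissue, had 12 and 18 UMIs in members with *Sox9* and 0 and 0 in members without, against 34.0 and 29.2 CPM without and 12.8 and 14.2 CPM with *Sox9* in other cells (adjusted p = 0.0017; no fold is given because a class was at 0). *Ppbp*, a platelet gene, differed by 6.00: in other cells it was at 27.5 and 57.4 CPM without and 0.171 and 1.06 CPM with *Sox9*, and in members it had at most 4 UMIs in each class.

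The muscle genes *Actc1* (5.34), *Ttn* (4.14), *Myog* (4.07) and *Mylpf* (3.77) were higher in the *Sox9* members of whole limb 1 than in those of whole limb 2. *Ttn* was at 26.2 and 0.224 CPM, *Actc1* at 24.2 and 1.57 CPM, *Myog* at 13.1 and 2.46 CPM and *Mylpf* at 18.2 and 4.03 CPM there. In other cells each was lower with *Sox9* in both libraries, such as *Actc1* at 39.5 and 35.0 CPM without and 10.3 and 7.85 CPM with it. Whole limb 1 also held 7 of the 8 members with at least 2 myogenic markers. Without cells of other types *Myog* stood at 1.13, *Mylpf* at 0.58 and *Actc1* at -0.04, none of them called, and *Ttn* did not pass the filter on low counts. *Ppbp* stood at 4.89 there and was not called either (adjusted p = 0.073 in edgeR). The lists of other types held no platelet genes, so cells with *Ppbp* were not left out on that ground.

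The other genes had a negative difference. *Shh* differed by -1.71 and *Sox5* by -1.05. *Slc1a3*, a glutamate transporter, differed by -1.0, being lower with *Sox9* in members (61.7 and 57.9 CPM without, 48.7 and 54.6 CPM with) and higher with it in other cells (22.8 and 20.8 CPM without, 37.0 and 39.3 CPM with). *Acot1*, an acyl-CoA thioesterase, differed by -1.0, from 27 and 33.9 to 19.6 and 18.1 CPM in members. *Zic2*, a zinc finger gene, differed by -0.82.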

How the results depend on the processing

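The genes named for their fold against all other cells kept their direction under every alternative tried, and their call wherever a test was made, except *Cbfa2t3*, which was not called with thinned cells (log2 fold change 1.39, adjusted p = 0.053 in edgeR). They were named for a call, a large fold and the same direction in both libraries, so the single libraries could not turn them. The other alternatives reuse the same cells. Counts of calls moved far more. Against all other cells the total, higher and lower calls were 1990, 796 and 1194 without the library block, 1400, 678 and 722 with DESeq2, 554, 166 and 388 with thinned cells and 1522, 588 and 934 with at least 2 UMIs of each defining gene; all 1990 and all 1400 were among the main 4480, and 529 of the 554. Against single-positive cells they were 117, 19 and 98 without the block and 9, 0 and 9 with thinned cells. The *Hand2* split gave 2, 1 and 1 without the block and 0, 0 and 0 with thinned cells. The *Sox9* split gave 9, 7 and 2 without the block, 1, 1 and 0 with thinned cells (209 at an unadjusted p under 0.05) and 89, 41 and 48 without the highest doublet scores. The *Lmx1b* split gave 1, 1 and 0 without the block, 0, 0 and 0 with thinned cells, 4, 4 and 0 without the highest doublet scores and 24 with 7 lower without cells of other types. The interaction gave 0, 0 and 0 both without the block and with thinned cells. Thinning and the stricter rule leave fewer UMIs or cells; for the other alternatives the cause was not tested.

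Of the 118 genes named and called against all other cells, 49 lost their call with thinned cells, 14 with at least 2 UMIs of each gene and 11 each without the block and with DESeq2. With thinned cells direction turned for *Sox9* (-0.029), *Car2* (0.21) and *Spry2* (0.36) against all other cells, *Cables1* (-0.047) and *Hoxd11* (-0.092) against single-positive cells, *Hoxd12* in the *Hand2* split (-0.25), *Mycn* (0.47) and *Sall3* (-1.01) in the *Sox9* split, *Dpysl3* in the *Lmx1b* split (1.13) and *Myog* (-4.55) and *Osr1* (-5.55) in the interaction, and without cells of other types for *Actc1* in the interaction (-0.042) and for *Pdgfa* (1.12), *Car2* (0.84) and *Ppp1r14b* (0.095) against all other cells. Thinned *Myog* and *Osr1* had 0 UMIs in members with *Sox9* and 1 UMI in members without, so their fitted values are no measured change. Signs also changed among genes that were not called, 11 of 13 against all other cells and 1 of 2 against single-positive cells. The mean double-positive share of 8.32% was 2.01% with thinned cells, 1.67% with at least 2 UMIs of each gene, 9.11% among cells of 5000 UMIs or more and 8.17% without the highest doublet scores; the single libraries gave 8.22 to 8.42%. Genes at least 2-fold apart in both libraries numbered 288, 53 higher and 235 lower, from 5 CPM on, and 18 were higher with a pseudocount of 5 CPM. In one library alone they numbered 176 to 188, 34 to 39 higher and 142 to 149 lower. Tests in one library alone have no residual degrees of freedom and were not made, and the planned removal of called doublets was not run because the caller marked 5 cells. Leaving out the highest doublet scores, and leaving out cells of other types outside the main comparison, were added after seeing the data.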

Other observations

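Immediate early genes, which respond within minutes to signals and to tissue dissociation, were lower in double-positive cells, 10 of 12. *Egr1* was at 25 and 26.9 CPM in members and 108 and 118 CPM in other cells (-2.11 ± 0.07), and *Fos* at 117 and 131 against 266 and 279 CPM (-1.13 ± 0.04). *Atf3* was the one higher, at 70.2 and 73.6 against 51.2 and 46.2 CPM (0.56 ± 0.06). Of 8 fetal growth genes 4 were lower and 1 higher, against 16.8% and 16.4% of all genes tested. *Igf2*, at 248 and 251 against 588 and 588 CPM (-1.23 ± 0.03), the imprinted noncoding *H19*, at 382 and 369 against 984 and 932 CPM (-1.35 ± 0.02), and the chromatin gene *Hmga2*, at 331 and 317 against 647 and 646 CPM (-0.99 ± 0.03), were lower, as was *Igf2bp3* (-0.15 ± 0.04). *Mycn*, a growth-promoting transcription factor gene, was the one higher (0.28 ± 0.06), and *Igf2bp1*, *Igf2bp2* and *Lin28b* were not called.

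Genes of glycolysis differed little. Of 16, 7 were higher and 2 lower, against 16.4% and 16.8% of all genes tested, with a median of 0.07. *Slc2a3*, a glucose transporter, was at 20.7 and 18.6 against 9.51 and 9.83 CPM (1.03 ± 0.13), the largest change of the list, whereas *Slc2a1*, *Vegfa* and *Pgk1* were not called. *Ldha* was higher by 0.21 ± 0.02.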
